A study of Homo sapiens with 6 samples.

Results

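The expression of 9 heat shock and polyubiquitin genes was examined in THZ1- and DMSO-treated NALM6 cells. The genes were chosen by name (HSF1, HSPA1A, HSPA1B, HSPA8, HSP90AA1, HSPH1, DNAJB1, BAG3 and UBB), and all 9 were found among the 57905 genes of the count table. The established human line NALM6 grew out of a leukemia of B cell precursors, and THZ1 binds covalently to CDK7, a kinase that phosphorylates RNA polymerase II, and blocks it. RNA-SEQ libraries of total RNA were made from cells kept for 24 h with 500 nM of THZ1 or with the solvent DMSO, with 3 libraries each. No other agent or genotype is named in the labels, the groups come from a single cell line, and nothing in the labels states whether the libraries were from separate cultures, so that p-values measure only the spread between these libraries.

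Heat shock proteins are chaperones that bind unfolded proteins. HSF1 is the transcription factor that turns on their genes when misfolded protein builds up, by binding heat shock elements in their promoters. HSP70 proteins hold and release unfolded clients in a cycle of ATP use that J-domain proteins such as DNAJB1 start and nucleotide exchange factors such as HSPH1 and BAG3 complete, and HSP90 proteins take over many clients, kinases and transcription factors among them. Clients that cannot be refolded are marked with ubiquitin, and UBB encodes it as a chain of units that is cut into single ones.

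Promoter letters are shown for the HSP70 and HSP90 genes, whose paralogs are compared below. Windows of 300 bases, from 250 before to 50 after a gene's start, were taken from RefSeq (GRCh38.p14), where 8 of the 9 genes had 12 windows. A heat shock element was searched on both strands as 3 alternating units with 2 bases between neighbours, GAANNTTCNNGAA or its reverse complement TTCNNGAANNTTC. It was found in windows of HSPA8 and HSP90AA1, that is in 2 of the 8 genes, against 166 of all 27305 genes with a window (0.608%). HSPA8 held it at both ends of the stretch printed here, and capitals mark the matches.
HSPA8, chr11:123062159-123062386, minus strand: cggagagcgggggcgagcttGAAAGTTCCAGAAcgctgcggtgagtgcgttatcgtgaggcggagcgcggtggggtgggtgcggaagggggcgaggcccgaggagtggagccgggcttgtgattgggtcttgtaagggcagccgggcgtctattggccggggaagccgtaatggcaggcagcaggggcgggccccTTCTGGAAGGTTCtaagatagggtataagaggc
HSP90AA1, chr14:102087100-102087152, minus strand: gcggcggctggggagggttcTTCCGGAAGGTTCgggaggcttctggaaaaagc
HSP90AB1, chr6:44247758-44247863, plus strand: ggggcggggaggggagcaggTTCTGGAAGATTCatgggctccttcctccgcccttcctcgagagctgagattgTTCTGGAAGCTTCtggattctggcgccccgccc
HSP90AB1, the constitutive partner of HSP90AA1, is not one of the 9 genes and held 2 matches before the third of its starts. The shorter form of 2 neighbouring units, GAANNTTC or TTCNNGAA, which is part of the longer one, was found in 5 of the 8 genes and in 16.2% of all genes with a window. HSPA1A and HSPA1B each held 1 such short match before the start, and the 120 bases before their starts are shown with it in capitals.
HSPA1A, chr6:31815423-31815542, plus strand: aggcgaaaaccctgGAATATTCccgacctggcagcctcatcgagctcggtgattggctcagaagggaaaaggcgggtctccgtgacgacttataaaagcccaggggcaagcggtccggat
HSPA1B, chr6:31827618-31827737, plus strand: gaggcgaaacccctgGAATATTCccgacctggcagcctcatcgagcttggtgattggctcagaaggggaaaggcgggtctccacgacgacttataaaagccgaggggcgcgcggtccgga
The upstream windows of HSPA1A and HSPA1B were the same at 235 of 249 positions (94.4%) when shifted by 1 base. A match describes letters only, and an absent match says nothing of whether HSF1 binds there.

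Library totals ranged from 11015480 to 11164840 counts after DMSO and from 7876402 to 8314306 after THZ1. Levels below are CPM, counts scaled to a common library total, after TMM scaling, which takes the bulk of genes as unchanged. With 84.5% of the genes tested called at an adjusted p-value below 0.05, that assumption was not met gene by gene. Rises and falls below are therefore relative to the other RNA of a library, and amounts per cell are not known. Fold changes were tested in edgeR by quasi-likelihood over 16622 genes, and p-values were adjusted after Benjamini and Hochberg. A count of 3, used as the floor for counting error, was worth 0.253 CPM or less after DMSO and 0.415 CPM or less after THZ1. All 10 markers of B cell precursors exceeded 1 CPM in both treatments, with sums of 3568.6 to 3835.8 CPM after DMSO and 1666.1 to 1756.9 CPM after THZ1. The summed T cell markers reached at most 0.969 CPM, the erythroid ones 0.526 CPM, the myeloid ones 4.59 CPM after DMSO and 18.0 CPM after THZ1, and the fibroblast ones 12.9 and 20.6 CPM. The part of these shifts in the results was not tested, and in bulk RNA fewer cells and less RNA per cell cannot be told apart.

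THZ1 treatment split the heat shock genes. The inducible HSP70 genes HSPA1A and HSPA1B rose, DNAJB1 rose slightly, whereas HSPA8, HSP90AA1, HSF1 and HSPH1 fell. UBB was not called, and BAG3 had too few counts to be tested. At an adjusted p-value below 0.05, 7 of the 8 genes tested were called, 3 higher and 4 lower, against 84.5% of all genes tested, 43.5% higher and 41.1% lower, so that the share called was near the background. When log2 changes also had to reach 1.5 in size, 2 were higher and 0 lower, against 24.6% and 12.9% of all genes (37.5% in either direction). With library sizes alone HSP90AA1 also passed this limit, at −1.62. HSPA8 and HSP90AA1 held most of the counts of these genes, and the 9 genes together took 0.640% ± 0.0166 of all counts with DMSO and 0.280% ± 0.00892 with THZ1 (SD, n = 3 libraries each).

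**Figure D1:**
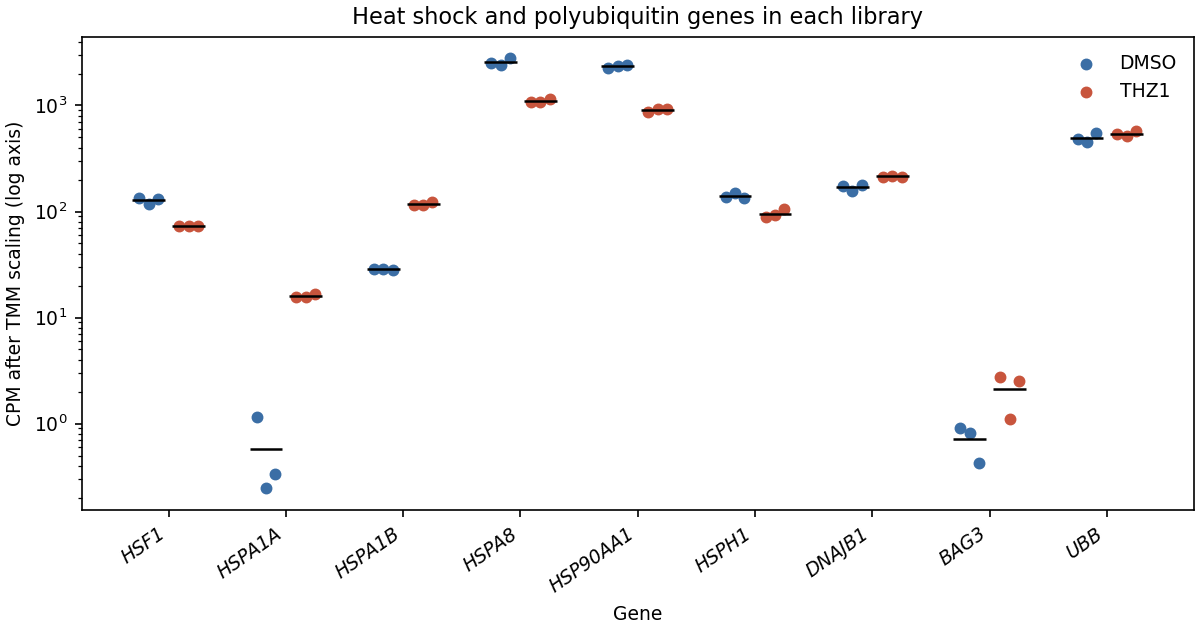
CPM after TMM scaling (log axis) of the 9 genes in each library. Points are libraries, 3 for each treatment, and bars are means. HSPA1A and HSPA1B lie higher with THZ1 and HSPA8 and HSP90AA1 lower, with no overlap, while the UBB points overlap.

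HSF1, the transcription factor of the heat shock response, lies on chromosome 8 from 145515273 to 145538383 (GRCh37). HSF1 had 134, 119 and 132 CPM in the DMSO-treated libraries and 73.2, 72.8 and 73.3 CPM in the THZ1-treated libraries. Every THZ1-treated library was lower than every DMSO-treated one, as held for 84.7% of all genes in either direction. Its log2 fold change was −0.81 (standard error, SE, 0.08, edgeR adjusted p = 2.7e-11). DGAT1 overlaps HSF1 on the opposite strand and rose from 29.0 to 64.0 CPM. Of the 50-base windows of the longest coding HSF1 transcript, 4.22% were shared with another gene. The effect of this overlap on the HSF1 counts was not tested. The other factors of the list moved the same way, with log2 fold changes of −0.63 for HSF2 and −0.89 for HSF4, and HSBP1, a small protein that binds HSF1, had −0.75. All 4 genes of that list that were tested were called lower, against 41.1% of all genes, and HSF5 had too few counts.

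HSPA1A and HSPA1B encode the stress-inducible HSP70 and lie on chromosome 6 from 31783320 to 31785723 and from 31795515 to 31798031 (GRCh37). HSPA1A had 14, 3 and 4 counts in the DMSO-treated libraries, or 1.16, 0.246 and 0.338 CPM. With THZ1 it had 119, 113 and 126 counts, or 15.6, 15.6 and 16.8 CPM. HSPA1A was thus close to the floor in 2 DMSO-treated libraries and well above it in all 3 THZ1-treated ones. Its fitted log2 fold change was 4.76 (SE 0.28, edgeR adjusted p = 2.8e-16). The summed counts gave a ratio of 27.6 with an exact 95% counting interval from 17.8 to 45.2. DMSO replicate 1 held most of the DMSO counts, and without it the ratio was 55.1 (26.5 to 138) and the fitted log2 fold change 5.70. In the deposited FPKM values the log2 fold change of HSPA1A was smaller, 2.97 on the scale of log2(FPKM + 1) and 3.67 with a pseudocount of 0.1.

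HSPA1B was the more abundant of the pair by count. It had 28.6, 28.4 and 28.3 CPM after DMSO and 114, 116 and 122 CPM after THZ1. The DMSO-treated libraries were nearly alike and the treatments lay far apart. The log2 fold change was 2.05 (SE 0.08, edgeR adjusted p = 1.8e-20), or 4.13-fold. HSPA1A and HSPA1B are nearly identical, and 75.1% of the 50-base windows of the HSPA1A transcript also occur in HSPA1B, so the division of counts between them is uncertain. With both counted as 1 gene, a choice made after seeing the data, the log2 fold change was 2.20 (edgeR adjusted p = 2.0e-21). The log2 ratio of HSPA1A to HSPA1B was −4.63, −6.85 and −6.39 with DMSO and −2.86, −2.89 and −2.86 with THZ1, so HSPA1A gained on HSPA1B in the counts as they were divided (difference 3.08, exact permutation p = 0.1). HSPA1L, a germ cell HSP70 gene on the opposite strand, starts 260 bases from HSPA1A in RefSeq and lay at 0.638 ± 0.135 CPM in DMSO-treated and 16.5 ± 2.37 CPM in THZ1-treated libraries (SD, n = 3). Its log2 fold change of 4.67 was close in size to that of HSPA1A. HSPA6, a strictly inducible HSP70 gene named here after its values were seen, had 20 counts in all with DMSO and 118 with THZ1, a ratio of 9.56 (exact 95% counting interval 5.92 to 16.2).

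HSPA8, the constitutive HSP70 that also serves clathrin uncoating, lies on chromosome 11 from 122928197 to 122933938 (GRCh37), with the small nucleolar RNA genes SNORD14C, SNORD14D and SNORD14E inside it. It had 2538.0, 2432.7 and 2788.5 CPM after DMSO and 1072.2, 1077.5 and 1153.3 CPM after THZ1. HSPA8 ranked 15th by CPM among all genes tested with DMSO and 95th with THZ1. Its log2 fold change was −1.23 (SE 0.07, edgeR adjusted p = 1.4e-16), a fall of 2.35-fold. HSPA9, the mitochondrial HSP70, was at the bottom of the HSP70 and HSP110 list with −1.28. HSPA8 thus fell while its inducible paralogs rose. The log2 ratio of HSPA1A and HSPA1B together to HSPA8 was −6.41, −6.41 and −6.61 with DMSO and −3.05, −3.03 and −3.05 with THZ1. This ratio of raw counts within a library does not depend on the scaling, and its means differed by 3.43, or 10.8-fold (exact permutation p = 0.1, two-sided, and 3 libraries against 3 cannot give a smaller one). As a share of the counts of these 3 genes, the inducible pair made up 1.02% to 1.16% with DMSO and 10.8% to 10.9% with THZ1. Of the 50-base windows, 75.1% for HSPA1A and 73.6% for HSPA1B were shared with another gene, against 16.5% for HSPA8. How reads that match several genes were counted is not given. The share of the pair against HSPA8 is therefore uncertain too, not only the division within the pair. By these counts HSPA8 was still the main HSP70 of the 3 after THZ1. Per kilobase of the longest coding transcript it had 477 ± 19.7 CPM, against 46.6 ± 1.75 CPM per kilobase for HSPA1B and 6.69 ± 0.289 CPM per kilobase for HSPA1A (SD, n = 3).

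HSP90AA1, the stress-responsive cytosolic HSP90, lies on chromosome 14 from 102547079 to 102606036 (GRCh37), where WDR20 overlaps it on the opposite strand. It had 2271.6, 2338.7 and 2394.9 CPM after DMSO and 866, 917 and 922 CPM after THZ1. All THZ1-treated libraries were lower than all DMSO-treated ones. Its log2 fold change, −1.37 (SE 0.07, edgeR adjusted p = 3.0e-18), was the lowest of the 8 genes tested. HSP90AB1, its constitutive paralog, had 2575.3 ± 108 CPM after DMSO and 2736.5 ± 33.9 CPM after THZ1 and was not called (log2 fold change 0.09, 95% interval −0.05 to 0.22). In the deposited values, which lack HSP90AA1, the mean log2 FPKM of HSP90AB1 was lower with THZ1, 10.98 against 11.52 with DMSO. The direction of HSP90AB1 therefore differed between the tables. The log2 ratio of HSP90AA1 to HSP90AB1 was −0.14, −0.11 and −0.17 with DMSO and −1.68, −1.56 and −1.57 with THZ1. The difference of −1.46 was larger than the spread between libraries, at an exact permutation p = 0.1. The full heat shock element letters were held by windows of both genes. The window of HSPA6, a gene named after its values were seen, also held them, from 74 to 62 bases before its start. A link between these letters and the fold changes was not tested.

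**Figure D2:**
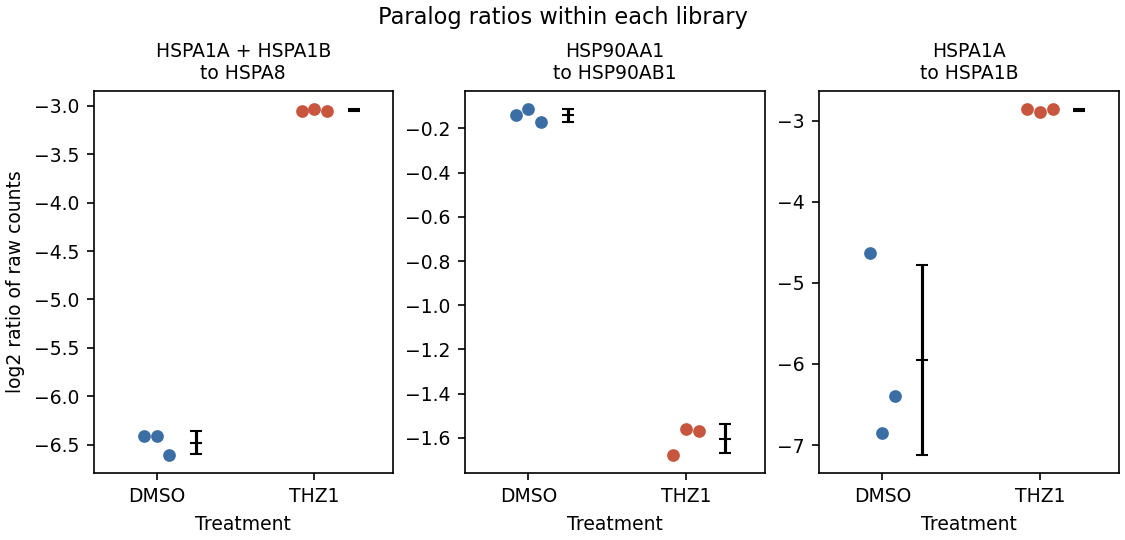
Log2 ratios of raw counts within each library for 3 sets of paralogs, with a separate vertical scale in each panel. Points are libraries, and bars beside them are means and SD (n = 3). The treatments do not overlap in any panel, and the spread of HSPA1A to HSPA1B with DMSO comes from counts of 14, 3 and 4.

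HSPH1, an HSP110 protein that helps HSP70 exchange its nucleotide, lies on chromosome 13 from 31709110 to 31736525 (GRCh37). It had 138, 150 and 133 CPM after DMSO and 89.0, 92.5 and 105 CPM after THZ1. The treatments did not overlap, and the log2 fold change was −0.55 (SE 0.08, edgeR adjusted p = 1.2e-07). No 50-base window of its transcript was shared with another gene. DNAJB1, the J-domain partner of inducible HSP70, lies on chromosome 19 from 14625581 to 14671203, where TECR and MIR639 overlap it on the opposite strand. It had 174, 156 and 176 CPM after DMSO and 211, 218 and 213 CPM after THZ1. DNAJB1 was higher in every THZ1-treated library by a small margin, and its log2 fold change came to 0.34 (SE 0.07, edgeR adjusted p = 4.1e-05). With library sizes alone this fell to 0.10 (edgeR adjusted p = 0.180), and was no longer called.

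BAG3, a co-chaperone that links HSP70 to autophagy, lies on chromosome 10 from 121410892 to 121437331 (GRCh37). It held 11, 10 and 5 counts with DMSO and 21, 8 and 19 with THZ1, or 0.909, 0.820 and 0.422 CPM against 2.76, 1.11 and 2.54 CPM. Although the CPM ranges did not overlap, BAG3 was removed by the filter for low counts and had no test in the main analysis. The summed counts gave a ratio of 2.99 (exact 95% counting interval 1.82 to 5.02). With no filter its log2 fold change was 1.48 (edgeR adjusted p = 8.6e-04), whereas in the deposited log2 FPKM values it was −0.16 (adjusted p = 0.587 by limma). The direction of BAG3 therefore differed between the tables. Low deposited values may not compare evenly between treatments. HSPB6, a small heat shock protein gene with 0.0800 CPM per kilobase of all exons after DMSO, had a mean log2 FPKM of 0.84. FKBP4, an HSP90 co-chaperone gene with 0.165 CPM per kilobase of all exons after THZ1, had 0.23. The part of this in the deposited values of BAG3 and HSPA1A was not tested.

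UBB lies on chromosome 17 from 16284112 to 16286059 (GRCh37) and encodes a chain of ubiquitin units. It had 487, 451 and 556 CPM after DMSO and 535, 521 and 572 CPM after THZ1, and these values overlapped. Its log2 fold change was 0.12 (95% interval −0.02 to 0.27, edgeR adjusted p = 0.111). The sign depended on the scaling, with −0.12 for unscaled library sizes and 0.32 for upper quartile factors (edgeR adjusted p = 2.0e-04), and without DMSO replicate 3 UBB was called higher at 0.19 (edgeR adjusted p = 0.00200). ENSG00000265401 lies within UBB on the opposite strand and held 4599, 4153 and 5209 counts with DMSO and 2989, 2990 and 3103 with THZ1, against 5889, 5506 and 6584 and 4071, 3764 and 4280 for UBB. The strand setting of the counting is not given, so the division of reads between the pair is uncertain, and with their counts summed, a choice made after seeing the data, the log2 fold change was 0.10 (edgeR adjusted p = 0.193).

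**Figure D3:**
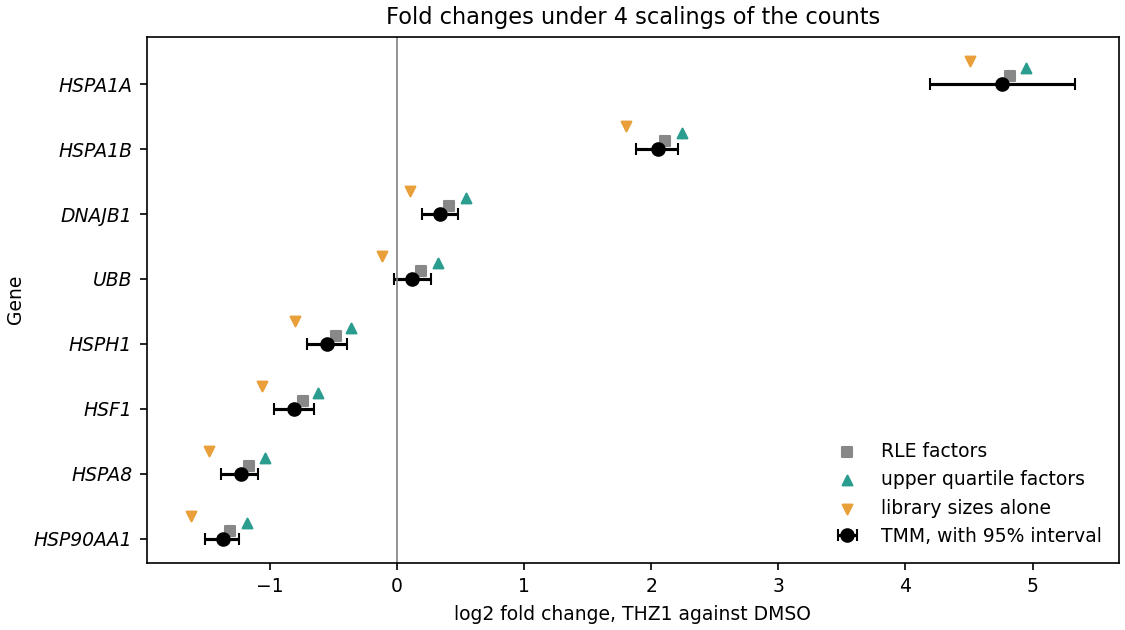
Log2 fold changes of the 8 genes tested, THZ1 against DMSO, with 4 scalings of the counts. Black points are TMM with the 95% interval of the fit. UBB crosses 0 between scalings, and HSPA1A, with the widest interval, stays above 4.

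The level of each gene relative to the others was read per kilobase of the longest coding transcript. With DMSO the order of mean CPM per kilobase was HSPA8 (1121.6 ± 79.3), HSP90AA1 (665 ± 17.6), UBB (472 ± 50.2), HSF1 (60.1 ± 3.90), DNAJB1 (39.5 ± 2.61), HSPH1 (26.7 ± 1.63), HSPA1B (11.3 ± 0.0692), BAG3 (0.280 ± 0.101) and HSPA1A (0.242 ± 0.209). With THZ1 UBB led with 514 ± 25 and HSPA8 followed with 477 ± 19.7, and their ranges of mean ± SD overlapped. HSP90AA1 then had 257 ± 8.74, HSPA1B 46.6 ± 1.75, HSF1 34.3 ± 0.119, HSPH1 18.2 ± 1.65, HSPA1A 6.69 ± 0.289 and BAG3 0.834 ± 0.351 CPM per kilobase, and DNAJB1 lay between HSP90AA1 and HSPA1B. With DMSO the lowest neighbours, BAG3 and HSPA1A, did not differ beyond their spread either, while the other neighbours in both orders were apart by more than their SDs on this scale. The order depended on the length used. Per kilobase of all exons of a gene, HSPA1B (46.6 CPM) lay above DNAJB1 (26.1 CPM) with THZ1, and UBB (346 CPM) lay farther above HSPA8 (227 CPM). In the deposited values DNAJB1 (mean log2 FPKM 7.06) lay above HSF1 (6.11) with DMSO. The levels of HSPA1A and HSPA1B rest on counts whose division between the pair is uncertain. That of UBB rests on an uncertain division with ENSG00000265401. Shared 50-base windows made up 75.1% of HSPA1A, 73.6% of HSPA1B, 50.1% of UBB and 21.4% of HSP90AA1, but 0% of HSPH1. Levels per kilobase may therefore not compare evenly between these genes.

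The wider chaperone and ubiquitin lists, of 87 genes with 75 tested, held genes of both directions. Of the 75, 22 were higher and 43 lower at any fold, against 43.5% and 41.1% of all genes tested. By 1.5 or more on the log2 scale 8 were higher and 11 lower, against 24.6% and 12.9%, with a median log2 fold change of −0.45 against 0.03 over all genes tested. The HSP90 chaperones and co-chaperones were mostly lower, 14 of the 17 tested, with 1 higher, against 41.1% lower and 43.5% higher among all genes. TRAP1, the mitochondrial HSP90, fell from 219 ± 23.0 CPM to 26.4 ± 0.432 CPM, FKBP5, a co-chaperone of steroid receptors, had a log2 fold change of −2.21, and CDC37L1 had 1.02. CDC37, which brings kinases to HSP90, had −0.27. Of the 10 chaperonins, 8 were lower and 0 higher, against the same background of 41.1% and 43.5%. HSPD1, the mitochondrial HSP60, fell from 1153.6 ± 23.7 CPM to 169 ± 8.76 CPM and CCT3 had a log2 fold change of −1.70, while HSPE1 and CCT8 were nearest to 0 among those called, at −0.53 and −0.71.

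Of the 14 DNAJA and DNAJB genes in the list of J-domain proteins, which leaves out the DNAJC genes, 8 were higher and 6 lower, near the background of 43.5% and 41.1%. Within that list DNAJB13 and DNAJB2 had the highest log2 fold changes, 3.94 and 2.63, and DNAJA3 and DNAJA1 the lowest, −2.13 and −1.75. Among the BAG proteins and other HSP70 regulators 3 of 9 were higher and 4 lower, also near that background, from 0.99 for BAG5 and 0.74 for SIL1 to −1.08 for ST13 and −1.96 for BAG2. Of the small heat shock proteins only 3 of 10 were tested. HSPB1, the abundant HSP27, rose from 500 ± 85.8 CPM to 939 ± 68.0 CPM (log2 fold change 0.91). HSPB6 had 5 counts in all with DMSO and 595 with THZ1, a ratio of 193 (exact 95% counting interval 82.2 to 596), and HSPB11, a ciliary transport protein, had −1.96. In the HSP70 and HSP110 list 6 of 14 were higher and 6 lower, again near 43.5% and 41.1%. The genes named as the highest or lowest of a list all had an adjusted p-value below 0.05 in edgeR's test.

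**Figure D4:**
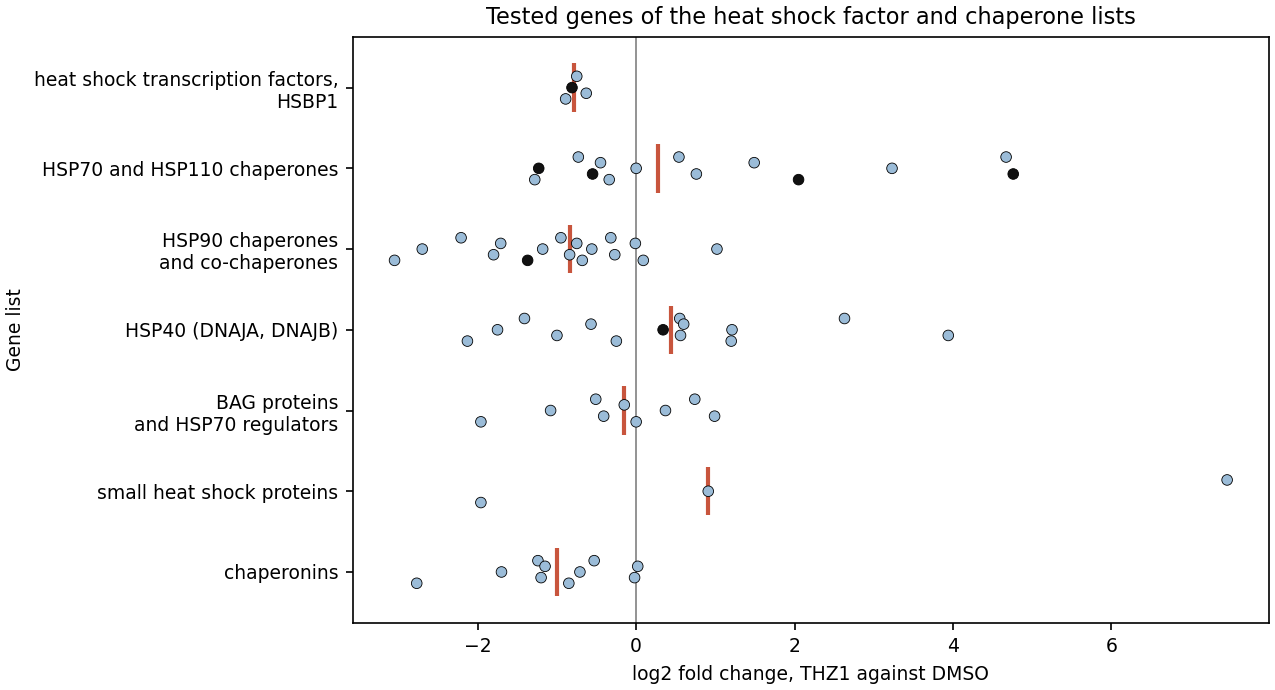
Log2 fold changes (THZ1 against DMSO) of the tested genes in 7 lists of heat shock factors and chaperones. Points are genes, black for the heat shock genes described above, and red bars are list medians. The HSP70 and HSP110 list spans from −1.28 to 4.76.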

How the data were processed

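The authors deposited raw counts by gene, for which STAR had placed the filtered reads on GRCh37 and htseq-count had counted them; the annotation and strand setting are not given in the sources used here. A second deposited table holds log2 values, read as log2(FPKM + 1) with FPKM from RSEM, for 16730 genes without HSPA8 and HSP90AA1. The sorted log2 values of libraries of one treatment differed by a median of 0.00150 to 0.00170, a step no source names. Between libraries of different treatments the median was 0.0870 to 0.0902. The effect of this on the limma results was not tested. Its columns of p-values, FDR and fold changes are the authors' own and were not used.

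Samples were grouped by their titles. Genes were filtered with edgeR's filterByExpr (a count of 10 and a total of 15 as minima). TMM factors were used, and edgeR's two-sided quasi-likelihood p-values were adjusted by the Benjamini-Hochberg method. Standard errors were derived from the fold change and the F statistic. A gene was called where its adjusted p-value was below 0.05, and a stricter call also needed a log2 change of 1.5 or more in either direction. Paralog ratios were compared by exact permutation tests, and one planned ratio is not reported here. Counting intervals are exact (Clopper-Pearson) at 95%. Between replicate libraries the chi-square divided by the number of genes was 1.78 to 8.61, above counting noise. The genes and lists were chosen with earlier results of these data known. Named were the 9 genes, those in the ratios, and of each list the 2 highest and 2 lowest called genes with a mean of at least 10 CPM in a treatment. The overlapping genes DGAT1 and ENSG00000265401, and HSPA6 and FKBP4, were named after their values were seen. Of the 87 list genes, 86 were matched. Gene loci are from GENCODE 44 mapped to GRCh37 and promoter letters from RefSeq on GRCh38.p14, with no conversion between them. Alternatives covered the scaling (RLE, upper quartile, none beyond library size), the filter, DESeq2, a replicate block, leaving out single libraries, and limma on the deposited values (pseudocounts 1 and 0.1, with or without a minimum mean FPKM of 1). The steps were tested on simulated data. R 4.3.3, edgeR 4.0.16, limma 3.58.1, DESeq2 1.42.0, Python 3.11.15, scipy 1.17.1 and pandas 2.3.3 were used.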

Additional observations from a re-analysis of the deposited data

How the results depend on the processing

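HSPA1A, HSPA1B, HSPA8, HSP90AA1, HSF1 and HSPH1 kept their direction and stayed past the threshold under every alternative that gave them a value, although HSPA1A moved from 4.76 to 2.97 and 3.67 in the FPKM values. Against TMM, upper quartile factors shifted the median of all genes by 0.19 and library sizes alone by −0.25. UBB had a log2 fold change of 0.19 with RLE factors and with DESeq2, 0.32 with upper quartile factors and 0.26 with at least 10 counts in every library, each past the threshold, but −0.12 with library sizes alone and −0.07 with limma on the FPKM values under each pseudocount and filter. Leaving out each library gave UBB 0.04 to 0.19. DNAJB1 was no longer called with library sizes alone (0.10) or with limma on the FPKM values (0.14). BAG3, at a log2 ratio of mean CPM of 1.58, had −0.16, −0.35 with a pseudocount of 0.1, and −0.16 with the FPKM filter. The number of members called at any fold was 7 in the main analysis and 4 with limma on the FPKM values, where 7 were listed. It was 6 with library sizes alone and 8 with RLE factors, upper quartile factors, DESeq2 or no filter. With each library left out it was 8 or 9. The number at 1.5 or more was 2 against 1 with at least 10 counts in every library, a filter that HSPA1A did not pass. It was 3 with library sizes alone, and 2 or 3 with each library left out. The median over the members tested, −0.21, was −0.02 with upper quartile factors, −0.46 with library sizes alone, −0.42 with at least 10 counts in every library, 0.04 with no filter, −0.07 with limma on the FPKM values, and 0.04 to 0.19 with each library left out, when BAG3 also passed the filter and had 1.28 to 1.85. In FPKM values the treatments differed by 1.88 in the ratio of HSPA1A to HSPA1B, against 3.08 in counts. The shorter element of 2 units was found in 5 genes, against 2 for the longer one. Except where a value or the filter itself shows it, the cause was not tested. Libraries with the same replicate number did not deviate together (correlations of −0.00, 0.00 and 0.02). With the replicate block 7 members were called at any fold, 2 at 1.5 or more, and UBB had 0.13. The block thus changed no call among the members. Depth limits HSPA1A with DMSO and BAG3, which lie near the floor of 3 counts.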
